A study of Mus musculus with 4 samples.

Results

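The genes described here were 6 markers of cell types other than T cells that held counts in libraries of mouse T-helper 2 (Th2) cells, and 3 genes annotated on the DNA strand opposite to them. They were the macrophage markers Csf1r and Cd68, the red cell marker Alas2, the B cell markers Cd79a and Cd22, the endothelial marker Pecam1, and the opposite-strand genes Hmgxb3 (facing Csf1r), Apex2 (facing Alas2) and Gm29439 (facing Cd22). These 9 genes of the 50600 in the count files were found by gene symbol. The 6 markers were chosen by their counts in these same libraries, so their levels are a description and carry no test. No numeric threshold was set: the marker with the fewest counts among those chosen, Cd22, had 42 over the 4 libraries, and among listed markers that were not chosen, Egfl7 had 33 and Cd72 had 2049.

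The libraries came from primary Th2 cells of mouse strain C57BL/6NJ, CD4 helper cells known for type 2 interleukins, and the file headers place the cells at a 72 h sort. No treatment, genotype or time sets them apart, so the 4 libraries form 1 group and there is no control group. The labels call them biological replicates 1 to 4 with 1 donor identifier in common, and nothing says whether they came from separate animals or cultures. The p-values below therefore measure only the spread between these libraries, which may be technical.

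Several of these markers sit at the centre of their lineages. CSF1R is the receptor through which CSF1 keeps macrophages and their precursors alive, and CD68 is a glycoprotein of macrophage lysosomes. ALAS2 catalyses the first step of heme synthesis in developing red cells. CD79A is the signalling chain of the B cell antigen receptor, and CD22 is a sialic-acid-binding receptor that dampens that signal. PECAM1, or CD31, is an adhesion molecule of endothelial junctions that is also present on platelets and many leukocytes, T cells among them. Of the opposite-strand genes, APEX2 is a nuclease of DNA repair, HMGXB3 is a protein with an HMG box, and Gm29439 is an annotated antisense RNA without a known role. Fragments were assigned to genes by strand with featureCounts, under its strand option 1. The sources used here do not say whether that setting matches the orientation of the library kit. If the kit is of the opposite orientation, each count below is of RNA from the strand facing the named gene. A count of Csf1r in the stretch it shares with Hmgxb3 would then belong to Hmgxb3, and likewise for Alas2, Cd22 and Cd72 and the genes facing them. Every level, share and order below is therefore given under the setting used.

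The total gene count was 1274431 to 1857433 per library, and 3 counts, the limit that a count of 0 allows, corresponded to 1.62 to 2.35 CPM (counts scaled to a library sum of 1000000). Both this limit and the Wilson intervals below cover only counting error. Genes that face an exon on the other strand held 79.9% to 91.5% of the counts of a library, least in replicate 4. Of the 21764 protein-coding genes, 4801 face such an exon. In the mitochondrial genome mt-Nd6, alone on its strand among the mRNA genes, had 38990 to 49626 counts per kb, while the highest of the 12 on the facing strand reached 2853. The T cell gene Cd3e had 90 counts over the 4 libraries, against 5403 for Gm48719 on the other strand. All 14 listed T cell markers had counts in each library, with a median of 20.9 TPM (counts per kb of exon, scaled to that same sum), among them Cd4 with 25.5 ± 19.8 TPM (SD, n = 4) and Cd3e with 5.54 ± 2.90 TPM. TMM scaling, which sets library sizes by the bulk of genes, moved them by 0.12, -0.23, -0.12 and 0.24 on the log2 scale in replicates 1 to 4.

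Both strands of the Cd22 and Alas2 loci are printed here, because the bases that a marker shares with the gene facing it show what a strand assignment has to separate. Sequences are from GENCODE M21 transcripts on mm10, 5′ to 3′ on each gene's own strand, and capitals mark bases inside an exon of the gene on the other strand. The capital run of each gene is the reverse complement of the run of its partner, as a script checked. Gm29439 is shown from its first base (chr7:30872733-30872792, plus strand), and Cd22 over the stretch it shares with that run (chr7:30872736-30872792, minus strand, coding exon). Alas2 is shown over the splice between its last exons, 10 bases before it and 20 after it. Apex2 is shown over those same 20 bases of the exon that faces it (chrX:150570328-150570347, minus strand, untranslated).
Gm29439: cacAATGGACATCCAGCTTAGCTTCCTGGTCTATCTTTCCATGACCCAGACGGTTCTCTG
Cd22: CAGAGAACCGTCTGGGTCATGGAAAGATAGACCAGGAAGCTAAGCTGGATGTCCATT
Alas2: aactttgtggAGAAGCTGCTGCTGGCCTGG
Apex2: CCAGGCCAGCAGCAGCTTCT

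Alas2 (chromosome X, 150547375 to 150570638, plus strand, 11 exons, 2403 bp of exon) had low counts in every library. The counts were 32, 26, 11 and 20 in replicates 1 to 4, or 18.0, 14.0, 7.61 and 15.7 CPM, with a mean of 13.8 ± 4.45 CPM (SD, n = 4). Replicate 3 was the lowest and the other 3 libraries lay within each other's 95% Wilson intervals. Its partner Apex2 (150519519 to 150589868, minus strand, 7 exons, 8744 bp of exon) had 23, 26, 18 and 43 counts, or 12.9, 14.0, 12.4 and 33.7 CPM, so replicate 4 stood above the other 3. The span of Alas2 lies wholly inside that of Apex2, and 311 bp of exon are shared, from base 150570328 to 150570638. On the Alas2 side these are the last exon, with 161 coding bases and 150 of untranslated region. On the Apex2 side all 311 are untranslated.

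The 2 genes of the Alas2 locus had counts of similar size but different density. Alas2 held 58.2% of the counts of the pair in replicate 1 (95% Wilson interval 45.0 to 70.3), 50% in replicate 2 (36.9 to 63.1), 37.9% in replicate 3 (22.7 to 56.0) and 31.7% in replicate 4 (21.6 to 44.0). Per kb of exon, Alas2 had 2.94 times the counts of Apex2 over the 4 libraries, and 5.06, 3.64, 2.22 and 1.69 times in replicates 1 to 4. Under the strand setting used, the marker was the denser gene in all 4 libraries, least so in replicate 4, where Apex2 was highest. If the kit is of the opposite orientation, the ratio of the 2 genes cannot be read from these counts. Only 311 bp of exon are shared, and fragments of either gene outside that stretch would need a new count. Among 931 pairs of protein-coding genes that share at least 100 bp of exon and hold at least 20 counts, the median fold between the denser and the other gene was 9.54. Of these pairs, 703 (75.5%) were at least as unequal as Alas2 and Apex2.

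The rest of the red cell list was at or near 0. Of 14 listed red cell genes in the files, 3 had a count: Alas2, Klf1 with 13 counts and Epor with 12. Klf1, the transcription factor of red cell genes, had 4, 6, 1 and 2 counts, and Epor, the erythropoietin receptor, had 7, 5, 0 and 0. The 11 others had 0 counts in all 4 libraries, among them the adult globin genes Hba-a1 and Hbb-bs, which red cells express far above any other gene. If the kit is of the opposite orientation, the 0 counts of these genes do not measure their mRNA. Neither Klf1 nor Epor has an exon opposite another gene. The summed level of the list was 8.30 to 24.1 CPM, lowest in replicate 3.

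Cd79a (chromosome 7, 24897381 to 24902197, plus strand, 1457 bp of exon) had 35, 41, 9 and 2 counts in replicates 1 to 4. This corresponds to 19.7 CPM (95% Wilson interval 14.1 to 27.3), 22.1 CPM (16.3 to 29.9), 6.22 CPM (3.27 to 11.8) and 1.57 CPM (0.430 to 5.72). Replicates 1 and 2 were high and replicates 3 and 4 low, with no overlap between the intervals of the first pair and those of the second. No exon lies opposite Cd79a, and the nearest protein-coding gene on the other strand, Gm4881, is 25247 bp away. The same-strand neighbour Arhgef1 starts 714 bp downstream and had 105, 41, 25 and 94 counts. It was high in replicate 4, where Cd79a was lowest.

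Cd22 (chromosome 7, 30865402 to 30880342, minus strand, 16 exons, 5042 bp of exon) had 14, 15, 12 and 1 counts, or 7.86, 8.08, 8.30 and 0.785 CPM. Replicates 1 to 3 were alike, and the 1 count of replicate 4 lay below the 3-count limit of that library. Gm29439 (30872733 to 30873333, plus strand, 2 exons, 509 bp) had 0 counts in all 4 libraries. Of its exon bases 479 (94.1%) face exons of Cd22, and 463 of those are coding in Cd22. Set against 3 counts over the 4 libraries, the density of Cd22 was at least 1.41-fold higher. The exons of the antisense gene are short, so 0 counts limit its density only loosely. Across the annotation, 52.1% of 2566 antisense genes had a count in some library.

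Other B cell genes were mixed. Of 18 listed, 10 had a count, and Cd72 held most of them. Cd72, a B cell co-receptor, had 557, 681, 396 and 415 counts, and shares 1423 bp of exon with the kinase gene Tesk1 on the other strand, which had 58, 38, 49 and 39. Per kb of exon Cd72 had 14.4 times the counts of Tesk1 under the strand setting used. The shared bases are 41.6% of the exon bases of Cd72 and 32.1% of those of Tesk1. What the ratio would be with the strands exchanged therefore cannot be read from these counts. Ighm, the constant region of IgM, had 0, 10, 3 and 12 counts. Where Cd79a was high, it had 0 (replicate 1) and 10 (replicate 2), and it was highest where Cd79a was lowest. Ebf1, the early B cell transcription factor, had 7, 6, 0 and 4. Ms4a1 (CD20), Pax5 and Ighd had 0 counts in all 4 libraries, Cd79b, the obligate partner of CD79A in the receptor, had 1 count in all, and Igkc, the kappa light chain, had 2. The 14 listed B cell genes that are neither among the 9 nor opposite an exon summed to 13, 24, 13 and 21 counts, a narrower range than that of Cd79a and in another order.

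Pecam1 (chromosome 11, 106654217 to 106750628, minus strand, 6228 bp of exon) had 95, 79, 120 and 106 counts, or 53.4, 42.5, 83.0 and 83.2 CPM, with a mean of 65.5 ± 20.8 CPM (SD, n = 4). Replicates 3 and 4 were high and replicates 1 and 2 low, whereas Cd79a was high in replicates 1 and 2. With TMM-scaled libraries the levels were 50.1, 50.9, 92.1 and 71.9 CPM, replicate 3 being the highest. It has no exon opposite another gene. Milr1, an inhibitory receptor gene of mast cells, starts 597 bp away on the other strand and had 65, 82, 69 and 55 counts, with replicate 2 the highest.

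Several other endothelial genes were at 0. Of 17 listed, 9 had a count and 4 had one in every library. Cdh5 (VE-cadherin), Kdr (the VEGF receptor), Tek and Tie1 had 0 counts in all 4 libraries. Eng, a TGF-beta co-receptor that is also present on other cells, had 36, 29, 33 and 31 counts and shares 61 bp of exon with Fpgs on the other strand, which had 12 in all. Egfl7, a secreted endothelial factor, had 12, 15, 5 and 1, and Icam2, an adhesion molecule that lymphocytes carry too, had 7, 4, 4 and 7. Erg, an endothelial transcription factor, had 5, 8, 0 and 9 counts, and Mmrn2, Robo4, Esam and Vwf had 6, 4, 4 and 2 in all. The 13 listed endothelial genes other than Pecam1 with no opposite exon summed to 12, 17, 13 and 18 counts, so Pecam1 held several times more than all of them together in each library.

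Cd68 (chromosome 11, 69664213 to 69666153, minus strand, 1257 bp of exon) had 16, 11, 33 and 0 counts, or 8.99, 5.92, 22.8 and 0 CPM. Replicate 3 was highest, and the 0 of replicate 4 allows up to 2.35 CPM by the 3-count limit. The mean of 9.43 ± 9.67 CPM (SD, n = 4) leaned on replicate 3, without which it was 4.97 CPM. No exon lies opposite Cd68. The translation factor gene Eif4a1 lies 782 bp away on the same strand and had 267, 66, 42 and 290 counts. It was lowest in replicate 3, where Cd68 was highest.

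Csf1r (chromosome 18, 61105572 to 61132149, plus strand, 22 exons, 4885 bp of exon) was the highest of the 9 genes and the steadiest, under the strand setting used. With the strands exchanged, these counts would be of RNA from the strand of Hmgxb3. The counts of Csf1r were 716, 827, 661 and 542, or 402.1, 445.2, 457.1 and 425.3 CPM. The mean was 432.4 ± 24.1 CPM (SD, n = 4), with a coefficient of variation of 5.58%. By total counts the highest library was 1.14 times the lowest. Among 1971 genes whose mean count was at least 100, the median coefficient of variation was 18.7%, and 3.55% varied less than Csf1r. The 1649 of these that face an exon, as Csf1r does, had a median of 17.0%, and 4.12% varied less. The 322 that face none had a median of 52.7%, and 0.621% varied less. With TMM-scaled libraries, tried after the data were seen, the levels were 377.4, 532.9, 507.4 and 367.5 CPM, with replicates 2 and 3 above the others. The coefficient of variation of Csf1r was then 19.3%, the median over the 1971 genes 28.6%, and 17.6% varied less. In TPM it stood at 131.2 ± 5.35, rank 987 of the 16612 genes with a count.

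Hmgxb3 (61131279 to 61177050, minus strand, 21 exons, 5101 bp of exon) had 14, 5, 0 and 11 counts. Replicates 1 and 4 were high and replicate 3 was at 0, an order that Csf1r did not share. The genes meet tail to tail over 871 bp, from base 61131279 to 61132149, which is 17.8% of the exon bases of Csf1r and 17.1% of those of Hmgxb3. All 871 are 3′ untranslated in Csf1r, and 7 are coding and 864 untranslated in Hmgxb3. Csf1r held 98.1%, 99.4%, 100% and 98.0% of the counts of the pair in replicates 1 to 4, and 98.9% over all (95% Wilson interval 98.5 to 99.2). Per kb of exon it had 95.6 times the counts of Hmgxb3 over the 4 libraries. In replicate 3 its density was at least 230-fold higher, against 3 counts. These values hold for the strand setting used. With the strands exchanged, the 2746 counts would be from the strand of Hmgxb3. The share and density of each gene could then not be read from these counts. Fragments of either gene outside the shared 871 bp would need a new count.

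Of the 931 protein-coding pairs described above, 108 (11.6%) were at least as unequal as Csf1r and Hmgxb3. The files give 1 count per gene, so the place of these fragments along Csf1r cannot be read from them. Whether they lay in the shared 871 bp or across all 22 exons was not tested.

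**Figure D1:**
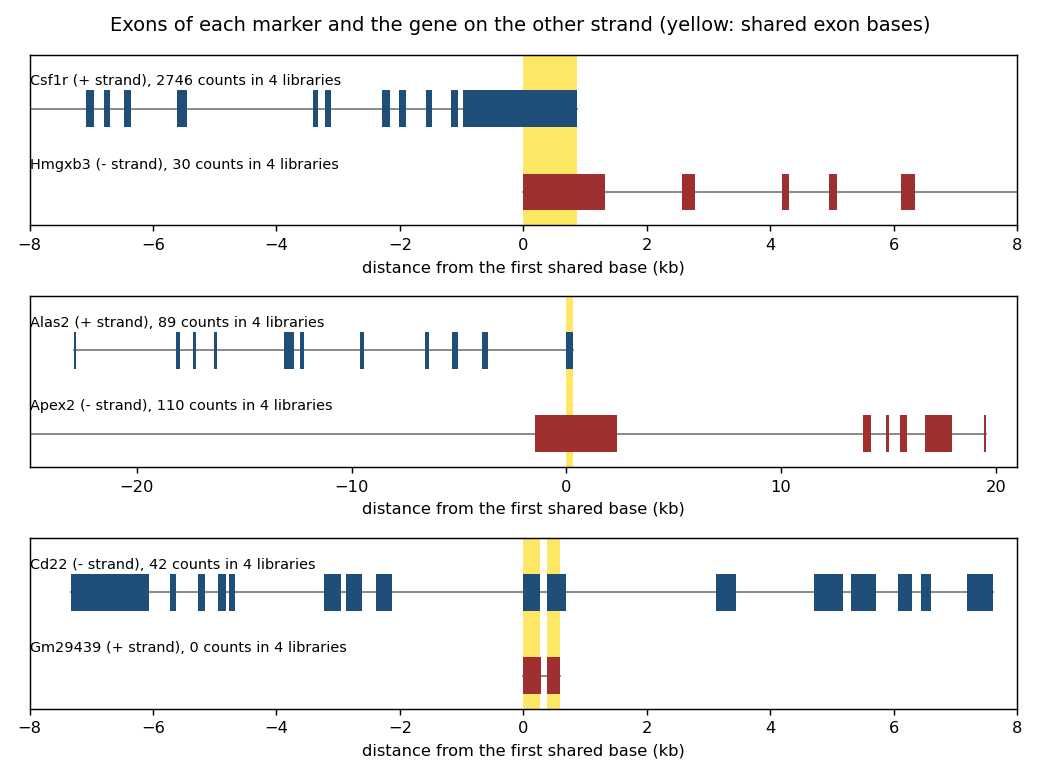
Exons (boxes) of each marker and of the gene facing it, by distance in kb from the first shared exon base; blue is the marker, red the partner, and yellow the shared exon bases. Long genes are cut at the edge of the window. Csf1r and Hmgxb3 share 871 bp at their ends, Alas2 and Apex2 311 bp, and 94.1% of the exon bases of Gm29439 face exons of Cd22.

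The macrophage list held almost nothing beside these genes. Of 20 listed, 4 had a count: Csf1r, Cd68, Ccr2 with 8 counts, all in replicate 4, and Cx3cr1 with 6. The other 16 had 0 counts in all 4 libraries. They include Adgre1 (F4/80), Lyz2 (lysozyme), Itgam (CD11b), Cd14, Spi1 (the transcription factor PU.1) and the complement genes C1qa, C1qb and C1qc, several of them among the most abundant transcripts of macrophages. Their 0 counts do not measure their mRNA if the kit is of the opposite orientation. The summed level of the list was 411.1 to 481.3 CPM, nearly all from Csf1r. Csf1r exceeded Cd68 per exon length in every library, by TPM values of 125.2 against 10.9 in replicate 1, 128.3 against 6.63 in replicate 2, 134.4 against 26.1 in replicate 3 and 136.8 against 0 in replicate 4.

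**Figure D2:**
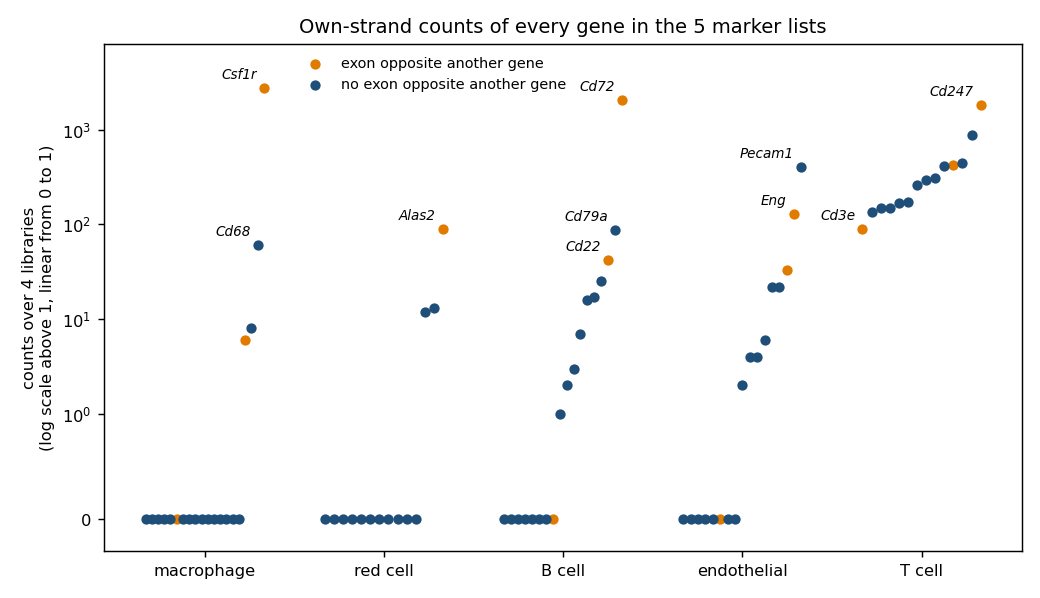
Counts over the 4 libraries (vertical axis, log scale above 1) of every gene of the 5 marker lists, in orange where an exon lies opposite another gene. Most macrophage, red cell and endothelial genes sit at 0 or under 100 counts. Under the strand setting used, Csf1r (2746) and Cd72 (2049) lie above every T cell gene, Cd247 (1837) being the nearest. Csf1r, Cd72 and Cd247 are all orange.

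Taking the macrophage, red cell, B cell and endothelial lists as 1 set, 26 of 69 genes (37.7%) had a count, beside 56.0% of all 21764 protein-coding genes. The share differed by list: it was 20% for macrophage and 21.4% for red cell genes, and 55.6% for B cell and 52.9% for endothelial genes, close to that of all protein-coding genes. The set held 5805 counts, of which Csf1r made up 47.3%, and Csf1r with Cd72 82.6%. Without an opposite exon, 19 of 59 listed genes had a count, beside 49.2% of all such protein-coding genes. With one, 7 of 10 had a count, beside 80.0%. In bulk RNA, fewer cells of a type and less RNA per cell cannot be told apart, so these counts give no number of cells. They also hold only under the strand setting used. If the kit is of the opposite orientation, they are of RNA from the strand facing each listed gene. A listed gene without a count would then say nothing on whether its mRNA or its cell type was present. The orientation of the kit was not tested.

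Ordered by TPM, which corrects for exon length, Csf1r stood apart under the strand setting used. Its lowest library (125.2) lay above the highest library of any other of the 9 genes, Cd68 at 26.1 in replicate 3. Next came Pecam1 at 15.7 ± 5.29 TPM (SD, n = 4), Cd79a at 12.4 ± 9.99, Cd68 at 10.9 ± 11.1, most of it from replicate 3, and Alas2 at 8.60 ± 3.01. Neighbours among these 4 differed by less than their SDs. Apex2 had 3.15 ± 1.94 TPM, Cd22 1.81 ± 1.04 and Hmgxb3 1.44 ± 1.27, and each lay within 1 SD of Apex2. Gm29439 was at 0. With the strands exchanged, each of these levels would be of RNA from the strand facing the named gene. The level given for Csf1r would then belong to the strand of Hmgxb3.

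**Figure D3:**
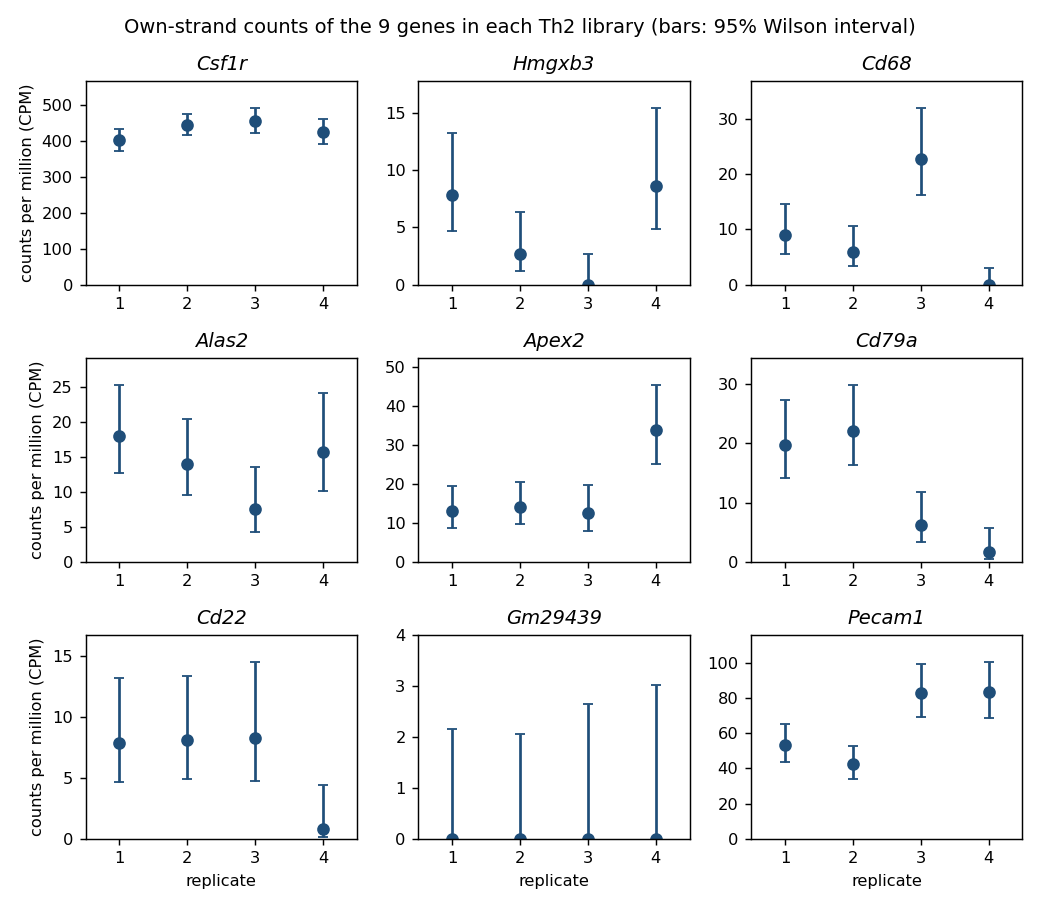
Own-strand CPM, under the strand setting used, of each of the 9 genes in replicates 1 to 4 (points), with 95% Wilson intervals (bars, counting error only). Csf1r lies between 402.1 and 457.1 CPM in all 4 libraries, whereas Cd68, Cd79a and Cd22 are lowest, and Apex2 highest, in replicate 4.

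The spread between libraries, which did not enter the choice of genes, was tested next. A mean count of at least 10 was reached by 7 of the 9, Hmgxb3 and Gm29439 falling short. The 4 counts of each gene were set against Poisson sampling by a chi-square test, with library sizes scaled by TMM and Benjamini-Hochberg adjustment over 7752 genes. The test called 6 of these 7 at an adjusted p under 0.05, and 88.2% of all genes tested. A share that high means that most genes vary beyond counting error, so the count over the 7 does not set them apart. The adjusted p was 4.46e-10 for Cd68, 1.45e-08 for Cd79a, 9.51e-06 for Pecam1, 0.00197 for Apex2, 0.0125 for Cd22 and 0.206 for Alas2.

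The call for Csf1r hung on the scaling. With TMM the adjusted chi-square p was 4.17e-16. With total counts it was 0.0916, 5 of the 7 were called, and the background was 87.4%. Without replicate 4 the adjusted p of Cd22 was 0.818 and that of Apex2 0.669, so the 1 library decided both calls.

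Each library was also set against the other 3 with edgeR's quasi-likelihood test, with Benjamini-Hochberg adjustment over 7752 genes. None of the 28 tests of the 7 genes was called, with a smallest adjusted p of 0.565. With 1 library in an arm this test made few calls at all, so their absence says little about these genes. Over all genes tested, 0% were called for replicate 1, 0.0129% for replicate 2, 0.0387% for replicate 3 and 0% for replicate 4. At an unadjusted p under 0.05 the numbers of genes were 33, 216, 726 and 683, and DESeq2 called 0, 1, 0 and 0 genes. Of the 28 tests 2 had an unadjusted p under 0.05, both for replicate 4. Cd79a had a log2 fold change of -3.60 ± 1.52 (SE, unadjusted p = 0.0276 and adjusted p = 0.565 in edgeR's test), and Cd68, with 0 counts there, had an unadjusted p of 0.00906 and the same adjusted p of 0.565.

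The markers did not share 1 pattern over the libraries. As deviations of log2(CPM + 1) from its own mean, Cd79a had 1.09, 1.25, -0.42 and -1.92 in replicates 1 to 4, Cd22 0.55, 0.59, 0.62 and -1.76, and Cd68 0.65, 0.12, 1.90 and -2.67. Pecam1 had -0.23, -0.55, 0.39 and 0.40, and Alas2 0.42, 0.08, -0.72 and 0.23. Cd68, Cd79a and Cd22 were thus each lowest in replicate 4, while Pecam1 was not low there. The median of the 14 T cell markers had 0.68, -0.64, -1.35 and 1.19, with replicate 4 the highest and replicate 3 the lowest. Hmgxb3 had 1.07, -0.19, -2.07 and 1.19, high and low in the same libraries as that median. The part of library make-up in these differences was not tested.

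**Figure D4:**
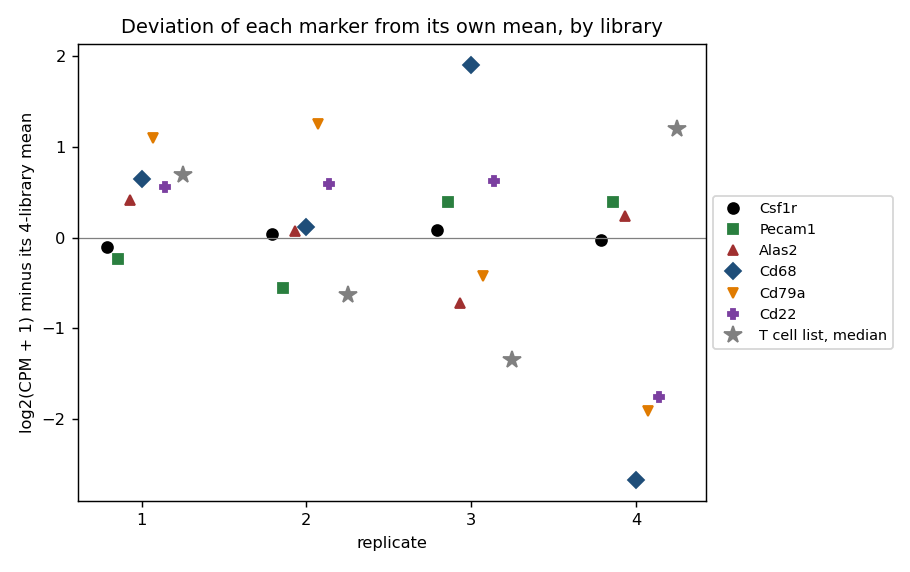
Deviation of log2(CPM + 1) from the 4-library mean (vertical axis) by replicate, for 6 markers and for the median of the 14 T cell markers (grey stars). Csf1r stays between -0.10 and 0.08, while Cd68 runs from 1.90 in replicate 3 to -2.67 in replicate 4.

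Genes most like each of these were sought among those whose mean count was at least 50, by the root mean square difference of the same deviations over the 4 libraries. For Csf1r the closest were Gsk3a (487, 566, 448 and 363 counts, a difference of 0.011), Oxnad1 (0.018) and Slc48a1 (0.021). For Alas2 they were Ndufv3 (131, 105, 47 and 78 counts, 0.029), Numa1 (0.068) and Grpel1 (0.082). For Cd79a they were the antisense gene 4933431E20Rik (88, 83, 26 and 6 counts, 0.15), Fam227b (0.18) and, farther off, Gm17349 (0.56).

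For Pecam1 the closest were Becn1 (76, 68, 97 and 82 counts, 0.056), Nmt1 (0.091) and Emsy (0.12). For Apex2 they were Tbrg1 (71, 76, 64 and 138 counts, 0.10), Supt16 (0.13) and Orc3 (0.15). None of these genes is on a marker list. Outside the T cell list, the only listed genes that reached that mean count were Csf1r, Cd72 and Pecam1, so other markers of the same lineage could hardly appear.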

How the data were processed

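The authors' deposited fragment counts per gene were used as deposited; per the file headers they were made with featureCounts 1.4.6-p4 on STAR alignments to mm10 with GENCODE M13 and strand option 1. Per the labels' protocols the linked method is for poly(A) RNA, although the assay title is total RNA-seq, and no source used here says whether option 1 fits the library kit. Within a shared stretch of exon, fragments of a gene and of its partner are told apart only by that option. Library totals ran from 1274431 to 1857433 counts.

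Symbols came from GENCODE M21 by gene identifier (50376 of 50600 matched). Of the listed genes, Ahsp was not matched. CPM, TPM and shared exon bases (at least 1 bp on the other strand, bedtools 2.31.1) were computed from the counts and the exon columns. Tests used edgeR 4.0.16 with TMM and a chi-square test in R 4.3.3, on genes whose mean count was at least 10, tested on simulated data first, with DESeq2 1.42.0 as an alternative. Other alternatives were median-of-ratios or total-count scaling, no filter, other exon lengths and count minimums, another pseudocount (0.1) and leaving out each library.

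The members, marker lists and tests were chosen with earlier results of these data known. Genes named are the 9, the largest partner of each marker, the 3 highest other genes and the defining genes of each list, and the 3 genes most like each of the 9 with a mean count of at least 20. Partners of other listed genes, flanking genes and further listed genes were named after their values were seen. Some results of this rule are not reported here. Exon coordinates are those of the count files.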

Additional observations from a re-analysis of the deposited data

Results flagged for a closer look

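A library whose gap to its nearest neighbour, as a share of the whole range, passed Dixon's 95% limit was sought in 20 values, and chance alone gives about 1 in 20. There were 2, both for replicate 4. Cd22 had 0.785 CPM there against 7.86 to 8.30 in the other 3, a gap of 0.942 of the range. Apex2 had 33.7 CPM there against 12.4 to 14.0, a gap of 0.927 of the range. The Cd22 value rests on 1 count against 12 to 15, and that of Apex2 on 43 counts against 18 to 26.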

How the results depend on the processing

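None of the 7 genes was called by edgeR or DESeq2 in any of 28 fits that set 1 library against others, with a smallest adjusted p of 0.051, in a design that made few calls among all genes in most fits. Over all genes, the count of calls for replicate 2 was 1, and 3 with median-of-ratios factors and 3 with no filter. For replicate 3 it was 3, and 0 with DESeq2. For replicate 4 it was 0, and 3 with median-of-ratios factors and 3 with no filter. Leaving out 1 library gave 0 to 195 calls for replicate 1 (195 without replicate 4), 1 to 443 for replicate 2 (443 without replicate 3), 2 to 852 for replicate 3 (852 without replicate 2) and 3 to 1290 for replicate 4 (1290 without replicate 1). In those fits the lone library is assumed to vary like the others.

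With at least 10 counts asked of a listed gene, 2 rather than 4 macrophage, 6 rather than 10 B cell and 5 rather than 9 endothelial genes had counts. Of 49 single-gene chi-square results under alternatives, 3 lost their call: Csf1r with total counts (0.0916), and Cd22 (0.818) and Apex2 (0.669) without replicate 4. Without replicate 3 the mean of Cd68 was 4.97 rather than 9.43 CPM. The coefficient of variation of Csf1r was 5.58%, and 19.3% with TMM-scaled libraries, an alternative chosen after seeing the data. The log2 ratio of partner to marker per kb stayed negative in every alternative, all under the same strand setting. Its main value was -6.58 for Hmgxb3 and -1.56 for Apex2. The alternative with other exon lengths took the shared bases out of the length but not out of the counts. It therefore cannot show what fragments in the shared stretch contribute to the ratio. The depth puts values of 1 to 3 counts, such as Cd22 in replicate 4, at its limit.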
